A study of Mus musculus with 10 samples.

Results

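The regions described here are the H3K27me3 islands of vehicle-treated MC3T3 cells that were still found, at least in part, after 24 hours of the EZH2 inhibitor GSK126. An island is a stretch of the genome that the peak caller SICER listed from the reads of the H3K27me3 immunoprecipitate and of input DNA. Most listed islands had more immunoprecipitate than input reads after scaling, but a few, given below, did not. A vehicle island was taken as kept if it lay on an autosome other than 6 or 19, was shorter than 10 kb and shared 1 base or more with an island of the GSK126 list. This gave 14949 kept islands among 27209 that met the chromosome and length limits (54.9%, exact Clopper-Pearson 95% interval 54.3% to 55.5%, counting error only). The vehicle list held 34498 islands in all, and the GSK126 list held 24947. Because the island lists themselves chose the members, their ChIP values below are a description and carry no test.

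MC3T3 is a mouse calvarial pre-osteoblast line, grown here in osteogenic medium (ascorbic acid plus beta glycerol phosphate). Cells received vehicle or 5 µM GSK126, given when differentiation started and on day 3, and removed on day 6. H3K27me3 ChIP and input DNA were sequenced 24 hours after the first dose, with 1 library of each kind per treatment. The RNA libraries came from days 3, 6 and 10, 1 for each treatment and day. No ChIP value therefore has a replicate, and the only spread available for RNA is that of the treatment difference between days.

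H3K27me3 is the trimethyl mark on lysine 27 of histone H3. It is written by EZH2 or its paralogue EZH1 within Polycomb repressive complex 2, is read by Polycomb repressive complex 1, and is typical of developmental genes that a cell keeps silent. GSK126 competes with the methyl donor at EZH2, and existing methyl marks are diluted as cells replicate their DNA or are removed by demethylases. In osteoblast precursors, EZH2 is known to restrain osteogenic differentiation.

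Kept islands held the promoter windows of only some of the genes discussed below, and 4 of these windows are shown to give the sequence context in which the mark was found. Each runs from 250 bases before to 50 bases after a RefSeq gene start (RefSeq table on GRCm38.p6, the assembly also called mm10), 5′ to 3′ on the gene's strand, with every CG pair in capitals. Frmpd1 and Srgn are genes whose RNA rose with GSK126. Hoxd10 and Hoxd4 are homeobox genes whose RNA stayed near 0 counts.
Frmpd1, chr4:45184656-45184955, plus strand: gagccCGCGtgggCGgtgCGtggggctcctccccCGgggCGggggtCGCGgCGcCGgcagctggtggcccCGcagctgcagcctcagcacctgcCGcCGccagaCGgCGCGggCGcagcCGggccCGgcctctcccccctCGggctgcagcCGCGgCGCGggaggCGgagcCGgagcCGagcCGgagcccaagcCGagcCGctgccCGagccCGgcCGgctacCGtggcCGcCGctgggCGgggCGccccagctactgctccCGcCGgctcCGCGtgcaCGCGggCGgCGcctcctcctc
Srgn, chr10:62507708-62508007, minus strand: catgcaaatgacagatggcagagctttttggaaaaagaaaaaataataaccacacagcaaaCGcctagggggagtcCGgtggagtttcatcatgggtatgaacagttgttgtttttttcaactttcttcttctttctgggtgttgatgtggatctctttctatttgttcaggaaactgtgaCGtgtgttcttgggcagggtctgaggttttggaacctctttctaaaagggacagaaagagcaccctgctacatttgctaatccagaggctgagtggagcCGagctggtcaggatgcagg
Hoxd10, chr2:74691641-74691940, plus strand: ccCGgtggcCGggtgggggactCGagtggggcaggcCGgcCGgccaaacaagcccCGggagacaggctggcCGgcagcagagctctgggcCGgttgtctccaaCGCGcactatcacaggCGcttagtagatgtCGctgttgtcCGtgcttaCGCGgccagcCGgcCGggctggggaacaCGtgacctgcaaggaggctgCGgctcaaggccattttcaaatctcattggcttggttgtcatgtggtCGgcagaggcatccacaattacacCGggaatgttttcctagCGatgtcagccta
Hoxd4, chr2:74721728-74722027, plus strand: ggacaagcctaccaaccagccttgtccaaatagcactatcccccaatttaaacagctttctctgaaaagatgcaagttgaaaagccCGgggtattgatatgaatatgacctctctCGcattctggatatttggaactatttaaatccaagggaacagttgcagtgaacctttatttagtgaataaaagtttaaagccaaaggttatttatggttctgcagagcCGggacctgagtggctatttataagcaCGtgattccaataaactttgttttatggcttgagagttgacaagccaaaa
The Frmpd1 window held 46 CG pairs at 83.3% G and C. The Hoxd10 window held 22 CG pairs at 62.7%, and the Hoxd4 and Srgn windows held 4 each at 39.7% and 45.0%. CpG-rich and CpG-poor promoters were thus both present inside kept islands.

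Over all members, 680 kept islands (4.55%) contained a whole promoter window, close to the 4.40% of islands not kept, and they held 806 windows of 719 gene symbols. These windows had a median of 4 CG pairs (quartiles 2 to 9), against 5 in the 630 windows inside vehicle islands that were not kept and 7 in all 28487 windows on the same chromosomes. CG, read on either strand, occurred at least once in 93.9% of windows inside kept islands and in 94.9% of all windows. Windows with an observed over expected CpG ratio above 0.6 and more than 50% G and C made up 15.4% inside kept islands, 18.7% inside islands not kept and 34.0% of all. The kept islands that contained a promoter window were longer than kept islands in general (median 5200 against 3600 bases). Their median ChIP to input ratio was 1.45 in vehicle and 1.32 with GSK126. The median log2 change of that ratio was -0.12 for these islands, compared with -0.24 for all kept islands.

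A typical kept island was shallow. In vehicle, kept islands had a median of 48 ChIP reads (quartiles 35 to 72) and 33 input reads (23 to 50) over a median of 3600 bases (2600 to 5200). The ratio of ChIP to input reads had a median of 1.51 (1.26 to 1.86), and the list's own fold enrichment, which equals that ratio multiplied by 1.68, had a median of 2.54. No library total was used here, so these reads per island are the depth behind each value. A total of 291 kept islands had an adjusted p-value above 0.01 in the authors' list, 45 had a fold enrichment below 1, and 2 had no input read.

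Kept islands differed from the 12260 eligible vehicle islands that were not kept mainly in size. The islands not kept had a median of 37 ChIP reads over 3000 bases, while their ratio of ChIP to input was nearly the same (1.52). The share kept was 46.7% among islands of up to 2 kb and 90.7% among those above 8 kb. By ChIP reads it was 38.8% for islands with up to 30 reads and 92.6% for those with more than 100. By the list's fold enrichment it stayed between 51.7% and 56.9% in all 5 classes from below 2 to above 4. A longer island has more bases in which a shared base can fall, so the rule itself favours long islands.

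At the limits of the rule, members and non-members lay close together. The fewest bases that a kept island shared was 200, the step of the island grid, and 233 islands shared exactly that much. One of them, chr1:13708401-13715200, had 95 ChIP and 60 input reads in vehicle and shared its 200 bases with a GSK126 island of 6200 bases. At the other side, 192 islands that were not kept touched a GSK126 island with a gap of 0 bases, for example chr1:36713401-36716000 with 32 ChIP and 35 input reads. The islands not kept had a median gap of 9.60 kb to the nearest GSK126 island, and 1274 had one within 1 kb. At the length limit, the kept island chr1:13404801-13414600 measured 9800 bases, and an island of 10000 bases at chr1:19184801-19194800 was left out.

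The GSK126 islands that overlapped kept islands were longer and had a lower ratio of ChIP to input. The whole GSK126 list also had longer islands than the whole vehicle list (median 5600 against 3400 bases). It had more input reads per kb as well (median 11.9 against 9.29). A longer GSK126 island has more bases to share, so the pairing favours long GSK126 islands. Each kept island was compared with the GSK126 island that shared the most bases with it. The GSK126 islands had a median of 91 ChIP and 74 input reads over 6400 bases, a median ratio of 1.27 (quartiles 1.12 to 1.45) and a median fold enrichment of 2.12. The log2 change of the ratio had a median of -0.24 over 14947 islands with input reads (quartiles -0.57 to 0.05), which is a ratio of 0.846. The interval of that median over islands, -0.25 to -0.23, measures the spread between islands and not between cultures.

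The ratio was lower with GSK126 in 10646 kept islands (71.2%) and higher in 4285. It was at least 1.5-fold lower in 3597 (24.1%), where 22.4% of all overlapping vehicle islands passed the same limit, and at least 1.5-fold higher in 397 (2.66%), where 2.47% of all did. Both shares of the members lay near these backgrounds. Over all 20826 overlapping vehicle islands with input reads the median change was -0.23, so that kept islands centred on it had a median of -0.0088. The lower ratio came with more input reads per kb in the GSK126 islands (median 11.5 against 9.17 in the vehicle islands). ChIP reads per kb were 14.6 against 13.8, and by that measure alone, chosen after the data were seen, the median log2 change was 0.080, the opposite direction. In SICER's layout the constant between ratio and fold enrichment scales input to ChIP depth. It was 1.68 for the vehicle list and 1.66 for the GSK126 list, and the scaled fold enrichment had a median log2 change of -0.26. Without each library's total, the reads per kb of the 2 treatments are not on 1 scale.

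**Figure D1:**
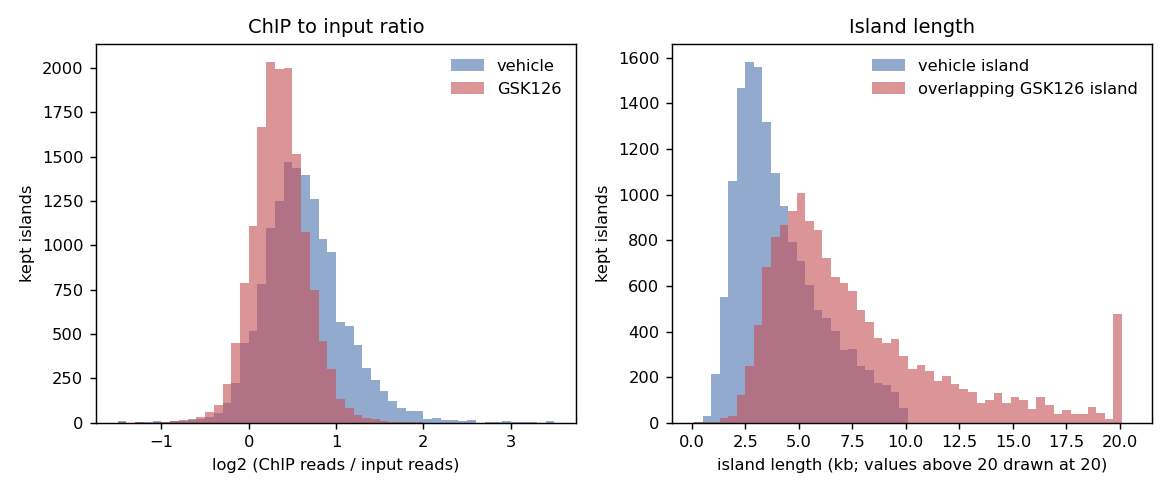
Left, number of kept islands by log2 ratio of ChIP to input reads in the vehicle island and in the GSK126 island that overlaps it most (14947 islands with input reads, values beyond -1.5 and 3.5 drawn at the ends). Right, their lengths in kb for all 14949. The GSK126 ratios sit lower and are narrower (median 1.27 against 1.51), and the GSK126 islands reach further to the right (median 6400 against 3600 bases).

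The overlapping GSK126 island was longer for 12073 kept islands (80.8%), shorter for 2572 and of the same length for 304. The median length ratio was 1.79 (quartiles 1.16 to 2.87). At least 1.5-fold longer islands made up 61.5% of members, against 58.9% of all overlapping vehicle islands, and at least 1.5-fold shorter ones made up 5.68%, against 7.62%. Some GSK126 islands spanned several vehicle islands. A total of 6603 kept islands (44.2%) shared their GSK126 island with another vehicle island, up to 8 in one GSK126 island, and their median length ratio was 2.60. The 7694 kept islands paired 1 to 1 with a GSK126 island had a median length ratio of 1.43. The log2 change of the ChIP to input ratio was alike in both sets, -0.25 and -0.24. Of the 61.2 Mb covered by kept islands, 47.3 Mb (77.3%) were inside GSK126 islands, and 6495 kept islands (43.4%) lay wholly inside.

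How much the ratio differed depended on where it had started. Kept islands with a vehicle fold enrichment of up to 2 had a median log2 change of 0.18, and those above 4 had -1.10. Over the 14947 islands the log2 change and the log2 vehicle ratio had a Pearson r of -0.80 (Spearman rho -0.77). This is a description only, since both measures hold the same vehicle reads. The median length ratio, which likewise holds the vehicle length, went from 3.75 in islands of up to 2 kb to 0.881 in those above 8 kb.

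Islands with the highest vehicle ratios had few input reads. Among kept islands with 5 or more input reads in both lists, the 6 with the highest vehicle ratio held 5 to 8 input reads, and none overlapped a gene span. The highest was chr14:17262001-17265800, with 62 ChIP and 8 input reads in vehicle, a ratio of 7.75 (95% interval 3.70 to 18.7). Its GSK126 island had 73 ChIP and 40 input reads, a ratio of 1.83 (1.22 to 2.75). These intervals come from the binomial share of ChIP reads and cover counting error only. They did not overlap in 5 of these 6 islands, which were picked from 14916 for their extreme values.

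The largest decrease in ratio was at chr3:5854601-5858400, where 40 ChIP and 13 input reads in vehicle stood against 47 and 109 with GSK126. The ratio was 3.08 in vehicle and 0.431 with GSK126, with a fold enrichment of 0.717 in the GSK126 list. The largest increase was at chr12:55545001-55548200, where 36 ChIP and 31 input reads stood against 42 and 8, a ratio of 1.16 in vehicle and 5.25 with GSK126. In both places the total of ChIP reads was similar and that of input reads differed, but the totals cover unlike stretches. The vehicle and GSK126 islands measured 3800 and 3600 bases on chromosome 3, and 3200 and 2000 bases on chromosome 12. Each pair shared only 1000 bases, so these totals do not show that the ChIP signal was unchanged. The 4 longest kept islands named by the rule, all 9800 bases on chromosome 1, included chr1:88319601-88329400 in the span of Trpm8, the cold-sensing ion channel. It had 134 ChIP and 89 input reads in vehicle and 107 and 88 with GSK126. Islands of equal length were taken in order of chromosome and position, so their chromosome carries no meaning. Another, chr1:85084601-85094400 in the span of A530032D15Rik, had more input than ChIP reads in both lists, 664 against 373 in vehicle and 1253 against 931 with GSK126.

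Chromosomes differed widely in the share of islands that were kept. On chromosome 17, 1541 of 2177 eligible islands were kept (70.8%), on chromosome 4 66.1%, on chromosome 2 63.5% and on chromosome 10 62.3%. On chromosome 14, only 74 of 361 were kept (20.5%), and chromosomes 13, 7 and 9 had 27.5%, 27.7% and 30.4%. The order broadly followed the density of vehicle input reads in the eligible islands, from a median of 6.25 reads per kb on chromosome 14 to 10.7 on chromosome 17. Over the 17 chromosomes, the share kept and that density had a Pearson r of 0.95 and a Spearman rho of 0.95. The points share their libraries, and the share kept also went with the number of eligible islands (r = 0.84). Within most chromosomes the kept and other islands had similar input, for example 10.7 reads per kb for both on chromosome 17 and 9.09 for both on chromosome 1. Chromosome 4 was an exception, with 10.8 in kept and 8.64 in other islands. The part of input density in the share kept was not tested.

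**Figure D2:**
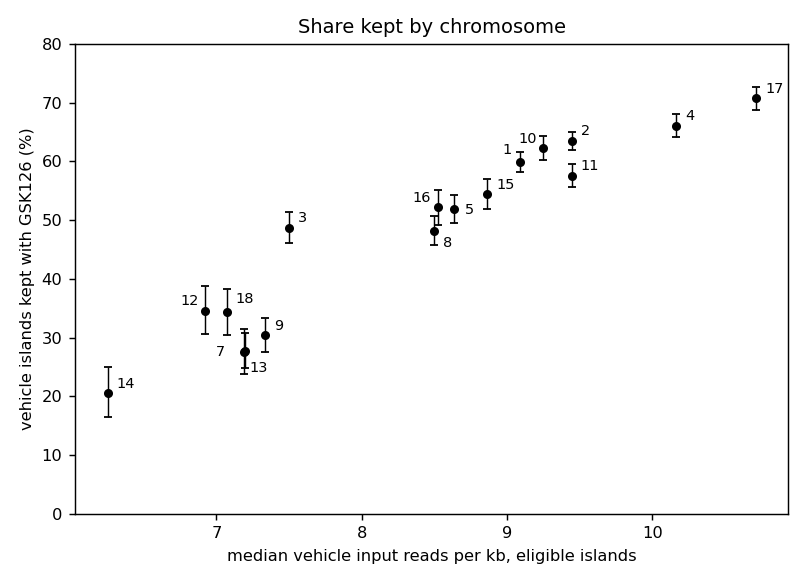
Share of eligible vehicle islands kept with GSK126 on each of 17 autosomes (vertical axis, %, with exact 95% binomial intervals) against the median number of vehicle input reads per kb in those islands. Points are labelled with the chromosome number; they run from 20.5% on chromosome 14 to 70.8% on chromosome 17.

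The median change of the ratio within kept islands was negative on all 17 chromosomes. It ranged from -0.39 on chromosome 3 to -0.17 on chromosome 17. The median vehicle ratio ran from 1.32 on chromosome 17 to 2.09 on chromosome 14, so that the chromosome with the lowest share kept had the highest ratio in its kept islands and the one with the highest share had the lowest.

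The HoxD cluster on chromosome 2 illustrates how the members lay over a developmental locus. Hox genes encode homeodomain factors that set position along the body axis and are textbook Polycomb targets. There were 5 kept vehicle islands between Evx2 and Hoxd3 and 1 vehicle island near Hoxd1 that was not kept. The island over Hoxd10, chr2:74688201-74695800, had 98 ChIP and 46 input reads in vehicle (ratio 2.13) and 130 and 77 in its GSK126 island (1.69). The island over the start of Hoxd4, chr2:74717801-74724400, had 101 and 65 reads (1.55) and then 72 and 58 (1.24).
Further along, 2 vehicle islands with ratios of 1.33 and 1.87 met a single GSK126 island with a ratio of 2.01, and the island over Evx2 met one of 11800 bases with 1.45 against 1.15. The counting intervals of the vehicle and GSK126 ratios overlapped for the highest-ratio island of Evx2, Hoxd10, Hoxd4 and Hoxd3, so no direction is given for them.

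RNA of these genes was almost absent in every library. Hoxd10 and Hoxd3 had 0 counts in all 6 libraries, which allows up to 3 fragments per library, where a fragment appears to enter as 2 counts. Hoxd4 had 0 counts in all vehicle libraries, and its GSK126 libraries had 2 on day 3, 14 on day 6 and 0 on day 10. Evx2 had a single non-zero value, 2 counts with GSK126 on day 6. The span of Hoxd3 contains that of Hoxd4, and the library kit does not mark strand, so reads of overlapping genes cannot be told apart.

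**Figure D3:**
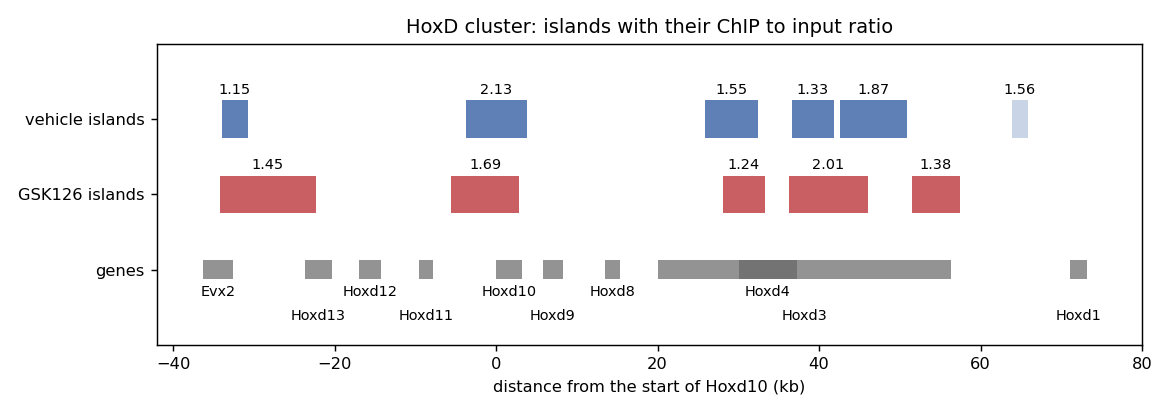
Islands of the HoxD cluster on the vehicle list (top) and the GSK126 list (middle) and gene spans (bottom), by distance in kb from the start of Hoxd10; the number above each island is its ratio of ChIP to input reads. The 5 dark vehicle islands are kept and the pale one near Hoxd1 is not; at Hoxd10 the ratio is 2.13 in vehicle and 1.69 with GSK126.

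Most kept islands lay outside annotated genes. A gene span in the count table was overlapped by 5035 kept islands (33.7%) and by 36.4% of the islands that were not kept. The count table gives gene spans without exons, so that exonic, intronic and UTR positions were not assigned. In all, 2008 of 20289 genes on these chromosomes (9.90%) shared a base with a kept island. Of these, 1006 had a single kept island, 284 had 5 or more and 1 gene had 23. Their spans were long, with a median of 32876 bases against 13670.5 for genes without a vehicle island.

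Genes under kept islands were mostly silent. Their mean RPKM, a level per length, over the 6 libraries had a median of 0.0070, while genes that overlapped only islands not kept had 0.00947 and genes with no vehicle island had 2.17. A mean RPKM above 1 was found for 131 of the 2008 (6.52%), against 55.2% of the genes with no vehicle island. A count of 0 in every library was found for 475 (23.7%). No ribosomal protein gene (0 of 72) and no proteasome subunit gene (0 of 42) had a kept island.

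Gene families differed in how many members had a kept island, beside the 9.90% of all genes. These families were picked after their values were seen and carry no test. A longer gene span has more bases in which a shared base can fall, and the families were not matched for span. Kept islands overlapped 5 of 8 Kcnh potassium channel genes, 6 of 11 Cacna calcium channel genes, 7 of 15 synaptotagmin genes, which encode calcium sensors of vesicle release, 6 of 13 Prdm genes, which encode PR domain transcription factors, and 7 of 16 Abca genes, which encode lipid transporters. Among olfactory receptor genes, a large silent family, only 29 of 1027 had one, and among vomeronasal receptor genes 6 of 272.

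RNA was not used to choose the islands, and it could be tested over the 3 days. The edgeR quasi-likelihood test had day and treatment as terms and was adjusted over 14344 genes. It covered 640 of the 2008 genes under kept islands. The other 1368 had too few counts to enter. RNA was higher with GSK126 for 27 of the 640 (4.22%, exact interval 2.80% to 6.08%) at an adjusted p below 0.05, against a background of 1.01% of all tested genes. It was lower for 0 of them, against a background of 0.272%. A total of 16 of the 640 had under 10 counts in every vehicle library and so passed the filter through the GSK126 libraries. They include 4 of the 27, Frzb, Frmpd1, Snap91 and Acsm4, whose calls are conditional on being high with GSK126. The filter asked for a minimum level in 3 libraries of either treatment. Slc36a2, Srgap1, Lcp1, Btla, Srgn and Fhl5 had under 10 counts in at least 1 vehicle library, so they too entered partly through GSK126 libraries. With 10 or more counts required in a vehicle and in a GSK126 library, a limit added after the data were seen, 23 of 623 were higher and 0 lower (background 0.959% and 0.273%). That limit needs only 1 vehicle library, so it keeps genes that entered partly through GSK126 libraries.

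Other ways of counting gave other totals. At an unadjusted p below 0.05 edgeR gave 157 higher and 37 lower of the 640, against 9.86% and 9.75% of all tested genes. DESeq2, another count model, gave 94 higher and 14 lower of 537 after adjustment, against 4.99% and 4.61% of all genes it tested.

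The number of edgeR calls changed when a day was left out, here as over all genes. Without day 10 there was 1 higher gene and 0 lower, against 0.0276% and 0% of all tested genes. Without day 6 there were 5 and 0, against 0.124% and 0.00691%, and without day 3 there were 25 and 2, against 1.41% and 0.739%. Of the 12 named genes, 8 kept an edgeR adjusted p below 0.05 without day 3, 1 without day 6 and 0 without day 10. Slc36a2, the 1 that kept it without day 6, had log2 differences of 4.91 without day 10, 4.40 without day 6 and 4.66 without day 3. Its edgeR adjusted p without day 10 was 0.0639. With 1 library per treatment and day the residual has 2 degrees of freedom, and nothing in the labels says that the days were independent cultures, so the p-values cover no more than the variation among these 6 libraries. A similar share was found outside the kept islands. Among genes that overlapped only islands not kept, 19 of 454 were higher (4.19%) and 0 lower. Genes with no vehicle island had 76 higher (0.658%) and 36 lower (0.312%) of 11542. These differences between gene classes were not tested.

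The gene classes also differed in RNA level, so bands of equal level are given. At a mean log2 CPM below 0, edgeR called higher 9 of 390 genes under kept islands, 3 of 266 with only islands not kept and 8 of 1609 with no vehicle island. From 0 to 2 the counts were 6 of 110, 5 of 95 and 5 of 964, and from 2 to 4 they were 8 of 75, 7 of 50 and 19 of 1990. Above 4 they were 4 of 65, 4 of 43 and 44 of 6979. In every band the share was higher in the first 2 classes than in the third, a difference that was not tested. The bands do not remove the effect of entry. Below 0 the 9 include Frzb, Frmpd1, Snap91 and Acsm4, which passed the filter through the GSK126 libraries. Lcp1, Srgn and Fhl5 below 0, Srgap1 and Btla from 0 to 2 and Slc36a2 from 2 to 4 entered partly that way. Such entry was not counted in the other classes.

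Over all tested genes the log2 difference had a median of 0.21 under kept islands, 0.19 with only islands not kept and -0.01 with no vehicle island. Under kept islands it was 0.35 below a log2 CPM of 0, 0.25 from 0 to 2, 0.048 from 2 to 4 and -0.033 above 4. Entry to the test was uneven. Of the tested genes under kept islands, 16 had under 10 counts in every vehicle library and 1 in every GSK126 library. With 10 or more counts required in a vehicle and in a GSK126 library, the median under kept islands was 0.17. These medians are a description only.

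The counts by day carry no test, because each day has 1 library per treatment, and they were one-sided on day 3. A gene below 1 CPM in vehicle entered them only through its GSK126 library. Genes under kept islands were mostly silent, so their higher shares are conditional on that entry and are a description only. Among genes with 1 CPM or more in either library of the day, 44 of 249 under kept islands were at least 2-fold higher and 0 lower on day 3, where the background was 1.51% higher and 0.162% lower. On day 6 the counts were 82 higher and 14 lower of 294 (background 4.15% and 2.06%). On day 10, after removal of the compound, they were 51 and 24 of 280 (background 3.07% and 2.44%). The share that was lower was largest on day 10, as it was over all genes.

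**Figure D4:**
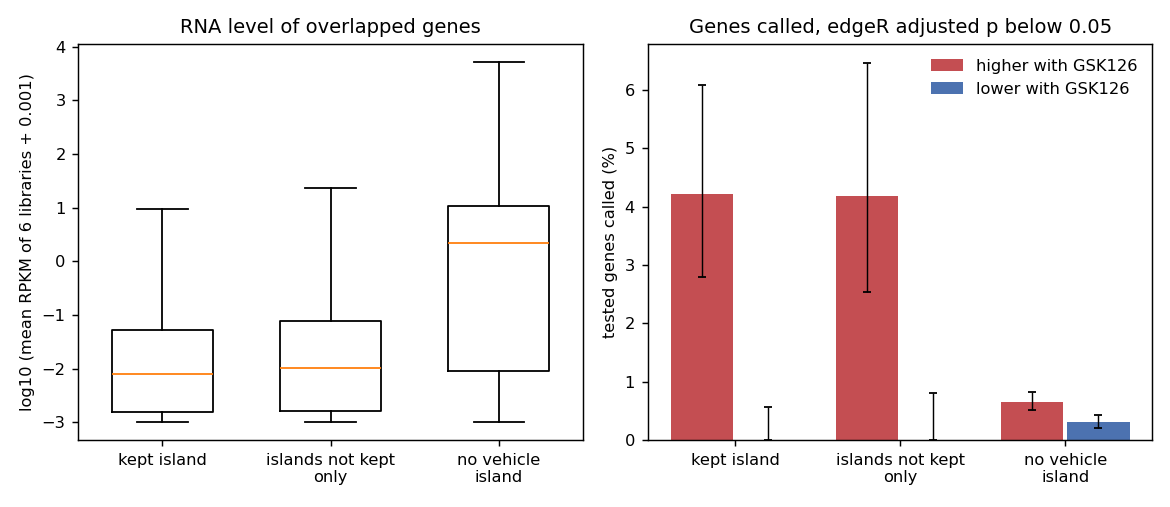
Left, mean RPKM over 6 libraries (log10 after adding 0.001) for genes that overlap a kept island, only islands not kept, or no vehicle island; boxes are quartiles with the median, whiskers reach 1.5 times the box height and single outlying genes are not drawn. Right, share of tested genes called higher or lower with GSK126 by edgeR, with exact 95% intervals; it is 4.22%, 4.19% and 0.658% higher in the 3 classes.

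The 27 genes rose by 1.05 to 5.93 on the log2 scale and were higher on each of the 3 days, with edgeR adjusted p-values from 0.00571 to 0.0469. A total of 11 had a mean log2 CPM below 1. The gene start lay within 1 kb of a kept island in 8 of them, and a promoter window lay inside one in 3, Frmpd1, Srgn and Clic5. The other starts lay further away or had no matched strand. Tested genes with a start that near numbered 164, and those with a promoter window inside numbered 84.

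Wnt antagonists were one listed group with several such genes. Wnt ligands act through Frizzled receptors and favour bone formation. Frzb, a secreted Wnt antagonist, had 0 counts on day 3, 2 on day 6 and 4 on day 10 without the inhibitor, and 20, 230 and 134 with it (the same order of days is used below). Its log2 difference was 5.93 ± 0.52 (SE) with an edgeR adjusted p of 0.0212, a size that depends on the prior count because the vehicle libraries were near 0. Frzb is one of the 4 genes that entered the test through the GSK126 libraries. Wif1, a secreted inhibitor that binds Wnt proteins, had 176, 624 and 916 counts without the inhibitor and 818, 4288 and 3520 with it.
Each GSK126 library of Wif1 was above the vehicle library of its day, by 2.35 ± 0.18 on the log2 scale (edgeR adjusted p = 0.0184). Rnf43, a ligase that takes Frizzled receptors off the cell surface, had 1318, 1764 and 1860 counts without the inhibitor and 3216, 3116 and 3586 with it, and the groups did not overlap. In all, 5 of 17 Wnt antagonist and feedback genes had a kept island. Over all 14 tested genes of the list, which was chosen with earlier results known, edgeR called 4 higher and 1 lower, where 1.01% and 0.272% of all tested genes were called. Of the 4 with a kept island 3 rose, Frzb included, and none fell; Lgr5, an R-spondin receptor, had a log2 difference of 2.16 with an edgeR adjusted p of 0.114. Sfrp4, a further secreted antagonist, had 2, 0 and 6 counts without the inhibitor and 6, 24 and 10 with it and was not tested.

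The largest rises otherwise came from genes of varied function. Slc36a2, a proton-coupled amino acid transporter, had 2, 28 and 262 counts without the inhibitor and 40, 880 and 5436 with it. The log2 difference was 4.62 ± 0.18, with the lowest adjusted p of the set (edgeR, 0.00571). Prex1, an exchange factor that activates the GTPase Rac, had 28, 134 and 410 counts without the inhibitor and 146, 1570 and 4790 with it. Both genes also increased from day to day within vehicle, so that the vehicle library of day 10 lay above the GSK126 library of day 3.
Frmpd1, a scaffold protein with FERM and PDZ domains whose CpG-dense promoter is printed above, had 0, 2 and 2 counts without the inhibitor and 14, 56 and 70 with it. Srgap1, a GTPase-activating protein of Slit and Robo signalling, had 6, 12 and 14 counts without the inhibitor and 46, 212 and 342 with it. In both genes all GSK126 libraries lay above all vehicle libraries. Pdzd2, a large protein with several PDZ domains, had 212, 270 and 456 counts without the inhibitor and 646, 3098 and 4634 with it. Fhl5, a LIM domain cofactor, had 6, 10 and 14 counts without the inhibitor and 32, 112 and 132 with it.

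Several risen genes are best known from other cell types. Lcp1, an actin-bundling protein of leukocytes, had 8, 14 and 0 counts without the inhibitor and 226, 108 and 12 with it. The difference was largest on day 3, and the GSK126 library of day 10 lay below the vehicle library of day 6. Btla, an inhibitory receptor of lymphocytes, had 2, 10 and 72 counts without the inhibitor and 22, 284 and 620 with it. Srgn, the core protein of a secretory granule proteoglycan in blood cells, had 2, 22 and 26 counts without the inhibitor and 28, 372 and 138 with it.
The list of blood and endothelial markers is given beside them. Of its 8 genes on these chromosomes 4 were tested, and edgeR called 0 higher and 0 lower. Ptprc, the common leukocyte antigen CD45 and the only one of them with a kept island, had 2, 2 and 2 counts without the inhibitor and 6, 2 and 2 with it. In bulk RNA, more cells of a type and more RNA per cell cannot be told apart. Snap91, a clathrin assembly protein of synapses, had 2, 6 and 2 counts without the inhibitor and 16, 66 and 32 with it. Acsm4, of the medium-chain acyl-CoA synthetase family, had 2, 6 and 4 and then 24, 62 and 48.

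Of 25 osteoblast genes on these chromosomes, only Enpp1 had a kept island, against 9.90% of all genes. The list had a median RPKM of 31.3 over the 6 libraries, so markers of the labelled cell type were present. Enpp1 makes pyrophosphate, an inhibitor of mineral deposition. It had 20, 42 and 38 counts without the inhibitor and 106, 238 and 114 with it, a log2 difference of 2.19 ± 0.30 (edgeR adjusted p = 0.0434). Of the 23 tested osteoblast genes, edgeR called 9 higher and 0 lower, against 1.01% and 0.272% of all tested genes, and 8 of the 9 lay outside kept islands. None of 20 genes for BMP and TGF-beta antagonists and receptors, 7 cell cycle inhibitors, 9 PRC2 subunits and demethylases and 14 PRC1 subunits had a kept island. These lists are short beside the 9.90% of all genes, and their median RPKM of 5.80 to 12.4 lay above the 2.17 of genes with no vehicle island.

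**Figure D5:**
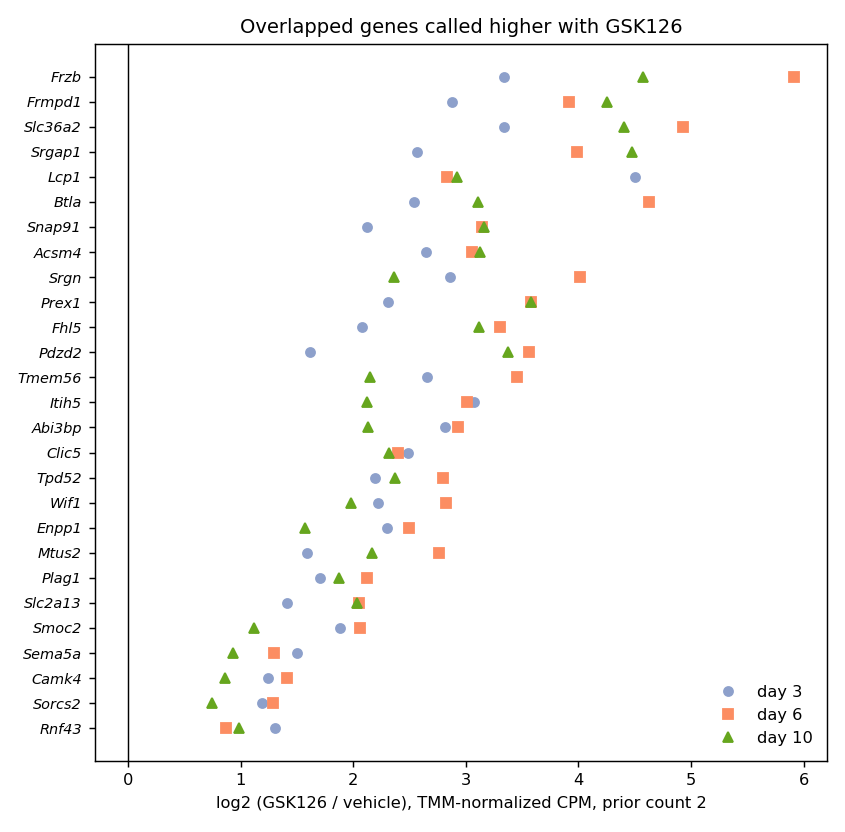
Log2 ratio of GSK126 to vehicle on days 3, 6 and 10 (TMM-normalized CPM, prior count 2; 1 library per treatment and day) for the 27 genes under kept islands called higher by edgeR, ordered by the fitted difference. All points lie to the right of 0.

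Of 122 developmental transcription factors on these chromosomes, 22 had a kept island, against 9.90% of all genes, and 18 had only islands that were not kept. Of the 22, 7 were tested, and edgeR called 0 higher and 0 lower, too few to set against the background of 1.01%. The log2 difference was above 0 in 5 of the 7, with a median of 1.98. Tbx5, whose value is that median, had under 10 counts in every vehicle library and so passed the filter through the GSK126 libraries. Lhx2 and Tbx4 had under 10 counts in at least 1 vehicle library and entered partly that way. These values are conditional on that entry and are a description only. Lhx2, a LIM homeobox factor, had 6, 6 and 12 counts without the inhibitor and 60, 64 and 18 with it, with a log2 difference of 2.45 (edgeR adjusted p = 0.134). Tbx5, a T-box factor of heart and forelimb, had 2, 8 and 8 and then 24, 32 and 14 (1.98, edgeR adjusted p = 0.157). Mnx1, Nkx6-1, Olig1, Sox17 and Wt1 had 0 counts in every library.
Of 28 Hox genes outside chromosome 6, 5 had a kept island. Hoxb9 and Hoxc4 were tested, with log2 differences of 0.57 and 0.28 (edgeR adjusted p = 0.242 and 0.726), and Hoxd3, Hoxd4 and Hoxd10 were too low.
The neuronal list had 4 of 13 genes under kept islands, Syt1, Gad1, Gad2 and Cacna1a. Cacna1a, a calcium channel subunit, had 1848, 1422 and 3110 counts without the inhibitor and 1502, 1438 and 2504 with it, a log2 difference of -0.16 (edgeR adjusted p = 0.459). A kept island was therefore also found over a gene with over 1000 counts in every library. The muscle list had 2 of 9, Myog and Myh3, with no call among the 1 tested.

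The RNA difference of a gene was set beside the ChIP change of its kept islands. Reads were summed over all kept islands of a gene and over their GSK126 islands. The summed ratio was lower with GSK126 in 20 of the 27 risen genes and in 463 of the 640 tested ones (72.3%). The median log2 change was -0.22 in the 27 and -0.20 in the 640. Over the 640 genes the RNA log2 difference and the summed ChIP change had a Pearson r of 0.04 (rho 0.06), where the genes share all libraries. The RNA was taken 2 to 9 days later than the chromatin.
Plag1, a zinc finger transcription factor, had the clearest lower ratio among the 27 apart from Tmem56, with 147 ChIP and 66 input reads in vehicle (2.23) and 78 and 80 with GSK126 (0.975). Its counts were 492, 338 and 234 in vehicle and 1588, 1430 and 840 with GSK126. Camk4, a calcium-dependent kinase, went from 303 ChIP and 111 input reads (2.73) to 408 and 279 (1.46). The counting intervals of the 2 ratios were apart in 4 of the 27 genes. Slc36a2, in contrast, had a ratio of 1.28 in vehicle and 1.57 with GSK126, and Prex1 had 1.41 and 1.52, with overlapping intervals.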

How the data were processed

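The members and the gene lists were chosen with earlier results of these data known. Tools listed in the submitters' processing notes are SICER 1.1 and BWA 0.5.9 as well as TopHat2 2.0.6, CASAVA 1.9 and HTSeq 0.5.3p9, on build mm10. Not given in the sources used here were SICER settings, annotation release and counting mode. The deposited island lists hold, for each island, the reads of ChIP and of input as counts, a scaled ratio of these (fold enrichment), and a p-value before and after adjustment; the authors called islands once per treatment. The deposited gene counts are whole numbers without normalization. They are all even (0 odd), so a fragment appears to enter as 2 reads. The deposited RPKM values, made by the authors, were used only for levels.

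The deposited start and end of each island were both raised by 1 base to give the 1-based positions printed here. Gene spans came from the count table, and 3 microRNA rows on these chromosomes with merged spans above 3 Mb (41 rows in all) were left out of the overlap. RNA totals ran from 97291878 to 111537936 counts. RNA was compared by the quasi-likelihood test of edgeR 4.0.16 under R 4.3.3 (TMM, filterByExpr, day and treatment terms, Benjamini-Hochberg over all 14344 tested genes, threshold 0.05), after a check on simulated counts, and DESeq2 1.42.0 was an alternative. SE is the log2 difference divided by the root of its F statistic. No island had a replicate, so islands carry no test. Named islands are the 6 with the highest vehicle ratio, the 6 largest rises, the 6 largest falls and the 4 longest. Named genes are the 12 largest rises, of those called, and members of the 11 lists under kept islands, with up to 5 examples per list; other called genes were named after their values were seen. Gene starts used RefSeq strands, matched for 68.7% of genes. Alternatives covered overlap, island thresholds, the measure of change, normalization, filter, days and tool.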

Additional observations from a re-analysis of the deposited data

How the results depend on the processing

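Requiring 50% reciprocal overlap left 5611 kept islands, an adjusted p of 1e-06 or below in both lists left 8998, and a fold enrichment of 2 or more in both left 8059. The median log2 change of the ChIP to input ratio was -0.26 with the lists' own fold enrichment, -0.23 with 1 read added to each count, -0.32 with the adjusted p of 1e-06 and -0.0088 when centred on all overlapping islands. It was 0.080, reversed, for ChIP reads per kb, a measure chosen after seeing the data. The median length ratio was 1.89 with all overlapping GSK126 islands summed, 1.43 for 1 to 1 pairs and 1.70 with the adjusted p of 1e-06. For 1e-06 and 1 to 1 pairs fewer islands entered; otherwise the cause was not tested. Genes higher with GSK126 under kept islands numbered 27 of 640 in edgeR (145 over all tested genes), 0 with no day term (0), 25 without day 3 (202), 5 without day 6 (18), 1 without day 10 (4) and 94 in DESeq2 (688). With the gene start within 1 kb of a kept island, 8 of 164 tested genes were higher. With a promoter window inside one, 3 of 84 were higher, where 1.01% of all tested genes were. Lower genes numbered 0 in edgeR (39 over all), 2 without day 3 (106) and 14 in DESeq2 (635). Library size in place of TMM gave 32 higher genes (185 over all), no filter 39 (195), halved counts 24 (135) and, added after the data were seen, 10 or more counts in both treatments 23 (137), each with 0 lower under kept islands. The labels give no replicate numbers, and the day term pairs the 2 libraries of each day. With 48 ChIP reads in the median island and 1 library per treatment, counting error limits each island, and the spread between cultures is unknown.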
